A study of Mus musculus with 8 samples.

Results

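The 9 genes described here encode matricellular and adhesive proteins of the extracellular matrix, and were taken by symbol from the table of gene counts: *Thbs1*, *Thbs2*, *Thbs3*, *Thbs4*, *Tnc*, *Sparc*, *Fbln2*, *Fn1*, and *Tnxb*. All 9 were present among the 16994 genes of the table, and all 9 were among the 12999 genes tested, whose average over the libraries reached 1 CPM, the count scaled to a common library size. Matricellular proteins are secreted into the matrix, where they modulate the contact between cells and matrix, the assembly of collagen, and the activity of growth factors, and most of them are scarce in the healthy adult heart and made again in a healing infarct. Thrombospondins bind matrix proteins, integrins, and CD36, and tenascin C loosens cell adhesion. SPARC binds collagen during its secretion and assembly, fibronectin is the adhesive scaffold on which later matrix is laid down, fibulin-2 links fibronectin, elastic fibers, and basement membranes, and tenascin X organizes collagen fibrils in loose connective tissue.

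RNA had been sequenced from heart tissue of male WT mice and of mice with whole-body knockout of *Tigar* (TKO). For each genotype there was 1 library of left ventricle and 1 library each of the infarct, border, and remote zones after permanent ligation of the left anterior descending coronary artery, which makes 8 libraries in all. Mice were 16 weeks old at ligation, and each infarct library pooled 3 mice. The time from ligation to the collection of this tissue is not given in the sources used here. The labels do not say whether the left ventricle came from sham-operated mice, and the number of mice behind the other libraries is not given in the sources used here. No source used here tells if the zones of a genotype were cut from the same hearts.

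Totals per library lay between 27429240 and 33799249 estimated counts. Levels are given as CPM scaled by edgeR's TMM factors, which were 1.54 for the WT and 1.26 for the TKO infarct library and 0.866 to 0.956 for the others. *Tigar* itself was at 25.2 to 71.9 CPM in the WT libraries and at 1.97 to 2.89 in the TKO libraries, as the labels have it. The summed level of 8 cardiomyocyte markers was between 24886 and 32334 CPM in the 6 libraries outside the infarct zone, 8101 in the WT infarct, and 15875 in the TKO infarct. In bulk tissue such as this, fewer cells of a type and less RNA per cell cannot be told apart. A ratio between 2 libraries has no replicate check, and the 95% interval beside it is an exact binomial interval that covers counting error only.

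Promoter sequences were at hand in RefSeq for 7 of the 9 genes, all but *Thbs1* and *Fn1*. The 250 bases before the start site are printed for *Thbs2*, *Thbs3*, and *Thbs4*, which belong to 1 family and were highest in the infarct zone, and for *Tnxb*, which was higher in TKO. They are from GRCm38.p6, read 5′ to 3′ on the strand of the gene. Capitals mark matches on either strand to the motifs searched, which were the TATA box written TATAAA, the CCAAT box written as in its name, the GC box of SP1 written GGGCGG, the AP-1 site written TGANTCA, the site of TEAD factors written GGAATG, and the CArG box of serum response factor. Overlapping matches were all marked.
Thbs2, chr17:14694263-14694512, minus strand: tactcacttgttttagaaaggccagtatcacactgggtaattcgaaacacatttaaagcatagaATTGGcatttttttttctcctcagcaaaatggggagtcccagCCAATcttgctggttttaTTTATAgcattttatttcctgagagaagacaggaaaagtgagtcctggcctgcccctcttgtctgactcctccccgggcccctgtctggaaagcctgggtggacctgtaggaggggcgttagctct
Thbs3, chr3:89214930-89215179, plus strand: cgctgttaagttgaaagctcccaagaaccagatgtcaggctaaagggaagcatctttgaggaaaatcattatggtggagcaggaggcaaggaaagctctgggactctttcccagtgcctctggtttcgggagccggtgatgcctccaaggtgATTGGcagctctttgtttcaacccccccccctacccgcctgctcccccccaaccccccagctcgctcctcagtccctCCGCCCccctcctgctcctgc
Thbs4, chr13:92794819-92795068, minus strand: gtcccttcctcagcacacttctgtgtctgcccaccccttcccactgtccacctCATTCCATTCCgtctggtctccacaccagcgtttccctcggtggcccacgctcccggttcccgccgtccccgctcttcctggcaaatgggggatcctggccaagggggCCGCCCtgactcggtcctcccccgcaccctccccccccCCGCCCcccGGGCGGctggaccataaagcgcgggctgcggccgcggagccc
Tnxb, chr17:34670285-34670534, plus strand: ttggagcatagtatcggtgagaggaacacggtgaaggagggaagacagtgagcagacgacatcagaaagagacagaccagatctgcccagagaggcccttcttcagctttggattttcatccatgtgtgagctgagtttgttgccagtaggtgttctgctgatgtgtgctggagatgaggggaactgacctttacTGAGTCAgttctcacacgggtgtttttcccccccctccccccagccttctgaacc
The *Thbs2* stretch held the CCAAT box on each strand and the TATA box on the other strand, and that of *Thbs3* held 1 CCAAT box and 1 GC box. The *Thbs4* stretch held 3 GC boxes and, side by side, 2 TEAD sites, and that of *Tnxb* held 1 AP-1 site. Of 32851 promoters of the same length in the table, 12.4% held the TATA box, 33.8% the CCAAT box, 32.7% the GC box, 6.75% the AP-1 site, 12.6% the TEAD site, and 1.47% a CArG box. No motif was shared by all 4 sequences. These are matches of letters, and nothing in the data measures binding to them.

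Per kilobase of the longest coding transcript, and as a mean over the 8 libraries, *Sparc* was the most abundant at 347 CPM per kilobase. *Fbln2* followed at 29.8, *Thbs4* at 20.4, *Thbs1* at 14.7, and *Thbs2* at 10.2. *Thbs3* at 5.67 and *Fn1* at 5.19 lay close together, and *Tnc* at 1.65 and *Tnxb* at 0.244 were lowest. The order was not the same in all tissue: in the WT left ventricle *Fn1* had 7.98 CPM per kilobase and stood above all 4 thrombospondins, of which *Thbs1* was highest at 4.25, whereas in the WT infarct *Fn1* had 8.06 and each thrombospondin was above it, with *Thbs3* lowest at 14.2.

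**Figure D1:**
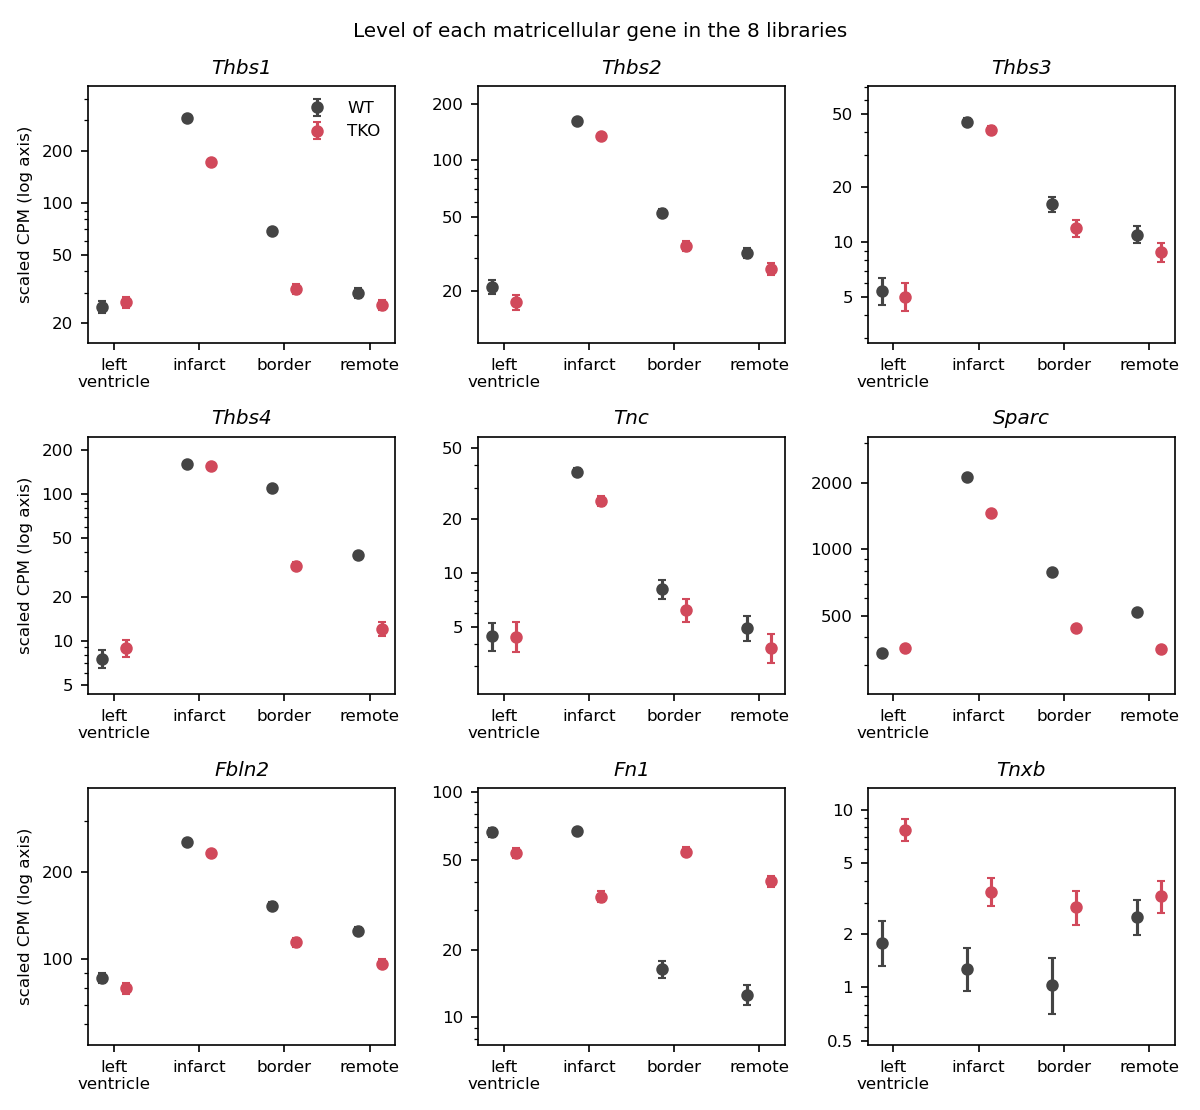
Level of each of the 9 genes in the 8 libraries, 1 panel per gene, in TMM-scaled CPM on a log axis, with WT in gray and TKO in red. Bars are 95% intervals of the counts. In both genotypes 7 genes peak in the infarct zone, and *Fn1* is lowest in the WT border (16.4 CPM) and WT remote zone (12.5). *Tnxb* is higher in TKO in every region, but in remote tissue only within counting error.

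The first thrombospondin, *Thbs1* (ENSMUSG00000040152, chr2:118111876-118127133, plus strand), encodes a trimeric protein known as an activator of latent TGF-β and as a ligand of CD36 and CD47. In WT it was at 24.8 CPM in the left ventricle, 29.9 in remote tissue, 68.3 at the border, and 311 in the infarct. In TKO the same regions had 26.4, 25.5, 31.7, and 171 CPM. The TKO level was thus close to the WT level in the left ventricle and lay below it in the infarct and border zones, and the step from left ventricle to border zone was 1.20-fold in TKO against 2.75-fold in WT. The TKO over WT ratio was 0.550 in the infarct (0.534 to 0.567), 0.464 at the border (0.429 to 0.501), 0.854 in remote tissue (0.775 to 0.941), and 1.06 in the left ventricle (0.954 to 1.18). The infarct ratio rests on 13156 estimated counts in WT and 6116 in TKO.

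*Thbs2* (ENSMUSG00000023885, chr17:14665500-14694235, minus strand) encodes the other trimeric thrombospondin, which is known to limit matrix metalloproteinase activity and to support matrix integrity in the injured heart. Its WT levels were 21.0 CPM in the left ventricle, 32.1 in remote tissue, 52.2 at the border, and 162 in the infarct. Its TKO levels were 17.4, 26.2, 34.7, and 134 CPM. TKO was below WT in all 4 regions, with ratios of 0.829 in the left ventricle (0.731 to 0.939), 0.827 in the infarct (0.797 to 0.858), 0.665 at the border (0.614 to 0.720), and 0.818 in remote tissue (0.744 to 0.899). On the TMM scale the step from left ventricle to infarct was the same in the genotypes within counting error, 7.73-fold in WT (7.10 to 8.43) and 7.71-fold in TKO (7.001 to 8.51). This match depends on the scaling. With total counts the median step of all genes shifted by 0.82 in WT and 0.53 in TKO on the log2 scale.

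*Thbs3* (ENSMUSG00000028047, chr3:89215180-89226837, plus strand) encodes a pentameric thrombospondin that is known to act inside the secretory pathway of cardiomyocytes. It was the least abundant of the 4 per kilobase, with 5.40 CPM in the WT left ventricle, 11.0 in remote tissue, 16.1 at the border, and 45.4 in the infarct. In TKO it had 5.06, 8.80, 11.9, and 40.8 CPM. The profile ran beside that of *Thbs2*: the TKO over WT ratio was 0.899 in the infarct (0.839 to 0.963), 0.741 at the border (0.645 to 0.851), 0.799 in remote tissue (0.678 to 0.942), and 0.937 in the left ventricle, where a difference was not detectable at this depth (0.735 to 1.19). Exons of *Thbs3* overlap *Mtx1* on the opposite strand, and whether the counting used strand is not given in the sources used here. *Mtx1* was at 15.1 to 20.6 CPM in the 8 libraries with TKO over WT ratios of 1.01 to 1.19.

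*Thbs4* (ENSMUSG00000021702, chr13:92751590-92794818, minus strand) encodes the second pentamer, a protein of tendon and of the overloaded heart that limits fibrosis. It was at 7.48 CPM in the WT left ventricle, 38.2 in remote tissue, 110.1 at the border, and 159.7 in the infarct. In TKO it was at 8.88, 12.1, 32.4, and 154 CPM. On the TMM scale the infarct and left ventricle levels of the genotypes lay side by side, while the WT border and remote zones stood far above their TKO counterparts. Scaled by total counts, the median TKO over WT ratio of all genes in the infarct shifted by -0.29 on the log2 scale. The match of *Thbs4* in the infarct does not hold on that scale. The TKO over WT ratio was 0.294 at the border (0.273 to 0.316) and 0.315 in remote tissue (0.280 to 0.355), but 0.967 in the infarct (0.933 to 1.002) and 1.19 in the left ventricle (0.979 to 1.44). Within a genotype, and with its left ventricle as the base, the WT border zone was 14.7-fold higher (12.8 to 17.0) and the TKO border zone 3.64-fold (3.15 to 4.23), while the WT remote zone was 5.11-fold higher (4.40 to 5.96) and the TKO remote zone 1.36-fold (1.15 to 1.61). Even the WT remote zone was 1.18-fold above the TKO border zone (1.08 to 1.29).

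*Tnc* (ENSMUSG00000028364, chr4:63959785-64047015, minus strand), whose product tenascin C is transient in wounds and known as a marker of active remodeling, was at 4.42 CPM in the WT left ventricle, 4.90 in remote tissue, 8.11 at the border, and 36.6 in the infarct. In TKO it was at 4.40, 3.82, 6.20, and 25.3 CPM. The infarct libraries stood far above the rest. From the WT remote zone down, through the WT and TKO left ventricles to the TKO remote zone, each differed from the next by less than counting error. The TKO border zone was 1.27-fold above the WT remote zone (1.02 to 1.58). As a ratio of TKO over WT, *Tnc* was at 0.691 in the infarct (0.636 to 0.751), 0.765 at the border (0.629 to 0.929), and 0.780 in remote tissue (0.606 to 1.002), and 0.997 in the left ventricle (0.765 to 1.30).

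*Sparc* (ENSMUSG00000018593, chr11:55394500-55423183, minus strand) was at 340.2 CPM in the WT left ventricle, 519.8 in remote tissue, 791 at the border, and 2125 in the infarct. In TKO it was at 358, 354, 443, and 1461 CPM. The TKO remote zone was thus at the level of the TKO left ventricle, and the genotypes parted in all 3 zones after infarction. As a ratio of TKO over WT, *Sparc* was at 0.688 in the infarct (0.680 to 0.695), 0.559 at the border (0.548 to 0.571), 0.681 in remote tissue (0.665 to 0.698), and 1.05 in the left ventricle (1.02 to 1.08). With at least 9278 counts in every library, *Sparc* had the narrowest intervals of the 9 genes.

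*Fbln2* (ENSMUSG00000064080, chr6:91212455-91272540, plus strand) varied least across the zones among the genes that peaked in the infarct. WT had 86.2 CPM in the left ventricle, 126 in remote tissue, 153 at the border, and 254 in the infarct, and TKO had 79.6, 96.8, 114, and 232. This gave TKO over WT ratios of 0.924 in the left ventricle (0.871 to 0.981), 0.914 in the infarct (0.888 to 0.940), 0.747 at the border (0.715 to 0.781), and 0.771 in remote tissue (0.734 to 0.809). The infarct stood 2.95-fold above the left ventricle in WT (2.82 to 3.09) and 2.92-fold in TKO (2.78 to 3.06).

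*Fn1* (ENSMUSG00000026193, chr1:71585520-71653200, minus strand), the gene of fibronectin, had a pattern of its own. In WT it was at 66.4 CPM in the left ventricle and 67.0 in the infarct, and at only 16.4 at the border and 12.5 in remote tissue. In TKO it was at 53.6 CPM in the left ventricle, 34.3 in the infarct, 54.5 at the border, and 40.3 in remote tissue. The WT border and remote libraries were the lowest of the 8, and the next lowest, the TKO infarct, was 2.10-fold above the WT border zone (1.89 to 2.33). The TKO over WT ratio was 3.33 at the border (3.01 to 3.69) and 3.21 in remote tissue (2.86 to 3.62), but 0.512 in the infarct (0.478 to 0.548) and 0.807 in the left ventricle (0.752 to 0.866). The raw counts of the WT libraries were 1819 in the left ventricle, 2836 in the infarct, 504 at the border, and 381 in remote tissue. In TKO they were 1388, 1227, 1616, and 1212, so depth did not limit any of these ratios. *Fn1* has 17 annotated transcripts, and exons overlap the antisense gene *Apol7d*, which has no row in the table.

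*Tnxb* (ENSMUSG00000033327, chr17:34670535-34719815, plus strand) was the least abundant of the 9 and higher in the TKO library of each region. Its WT levels were 1.79 CPM in the left ventricle, 2.50 in remote tissue, 1.04 at the border, and 1.28 in the infarct, from 32 to 76 counts. Its TKO levels were 7.72, 3.25, 2.83, and 3.47 CPM, from 84 to 200 counts. The TKO left ventricle stood apart, at 2.23-fold the TKO infarct (1.77 to 2.81), and below it each library in the order of level differed from the next by less than counting error. The TKO over WT ratio was 4.32 in the left ventricle (3.15 to 6.03), 2.72 in the infarct (1.96 to 3.81), and 2.73 at the border (1.79 to 4.24), while in remote tissue a difference was not detectable at this depth (1.30, 0.956 to 1.78). The TKO zones were at 0.367 to 0.449 of the TKO left ventricle. Exons of *Tnxb* overlap the pseudogene *Cyp21a2-ps* on the opposite strand. *Cyp21a2-ps* had 0 counts in both left ventricle libraries and at most 9 in any library, the WT infarct.

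**Figure D2:**
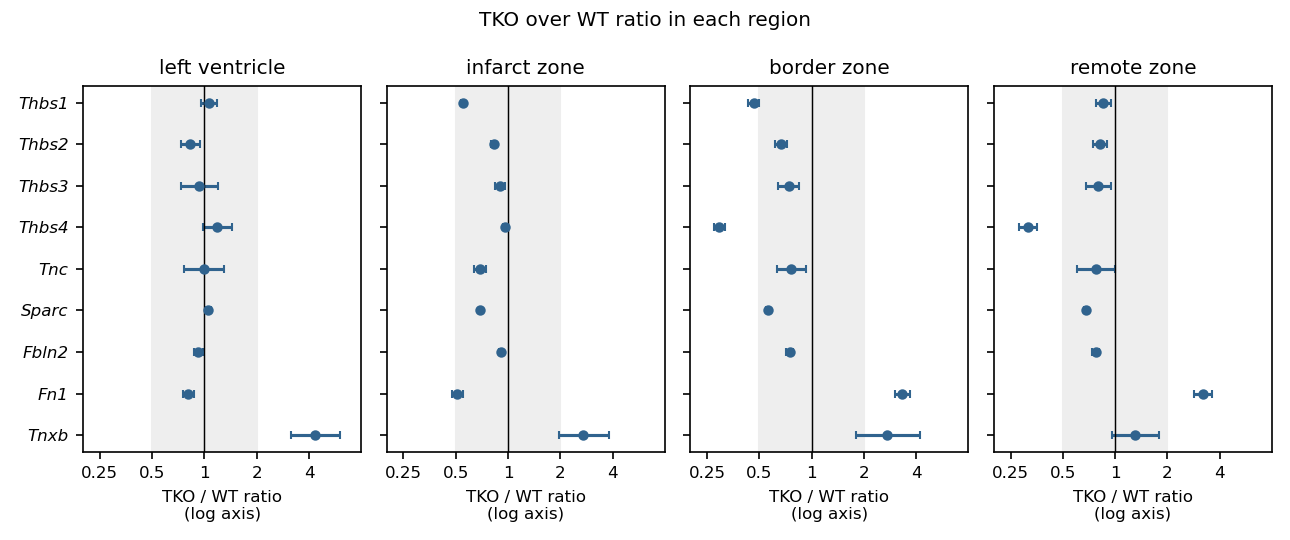
TKO over WT ratio of each gene in each region, on a log axis, with 95% counting intervals; the gray band spans 2-fold in either direction. At the border *Thbs4* (0.294) and *Thbs1* (0.464) lie left of the band and *Fn1* (3.33) and *Tnxb* (2.73) right of it, and in the left ventricle *Tnxb* (4.32) alone lies outside.

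With a prior count of 2 added to each level, the members at least 2-fold different between the genotypes were few. At the border, 2 of the 9 were lower in TKO (*Thbs1* and *Thbs4*), against 3.26% of the 12999 genes tested, and 2 were higher (*Fn1* and *Tnxb*), against 1.23%. In remote tissue *Thbs4* was lower, against 2.39% of all genes, and *Fn1* higher, against 1.17%. In the infarct *Tnxb* was higher, against 2.4%, and no member was lower, against 1.43%, although *Fn1* lay just inside the bound. In the left ventricle *Tnxb* was higher, against 1.98%, and none was lower, against 3.62%. The median ratio of the 9 genes was 0.827 in the infarct, 0.742 at the border, 0.801 in remote tissue, and 0.997 in the left ventricle, and that of all genes tested lay between 0.993 and 1.01 in the 4 regions. Scaled by total counts, the median of all genes in the infarct moved to 0.820, and there *Thbs1* and *Fn1* also passed 2-fold, as lower in TKO, against 3.82% of all genes on that scale. *Tnxb* was again the 1 member at least 2-fold higher, against 0.892%.

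Whether the genes differed between genotypes across regions was tested with edgeR's quasi-likelihood test, with the region as a block and Benjamini-Hochberg adjustment over all 12999 genes. Regions stand in for replicates there, so the test bears on regions and not on mice. None of the 9 passed, against 24 of all genes (0.185%). At an unadjusted p under 0.05 there were 7 of the 9, against 16.2% of all genes: *Thbs1*, *Thbs2*, *Thbs3*, *Tnc*, *Sparc*, and *Fbln2*, with TKO levels below WT, and *Tnxb*, above. The largest difference was that of *Tnxb*, a log2 difference of 1.34 (SE 0.295; edgeR adjusted p = 0.170). *Tnxb* was higher in TKO in 4 of 4 regions, but in remote tissue only within counting error. *Thbs2* had a log2 difference of -0.36 (SE 0.0824; edgeR adjusted p = 0.178), lower in 4 of 4. These were also the 2 members that the Wald test of DESeq2 called, with adjusted p of 0.00624 and 0.0479. That test called 342 of all genes, against 24 with edgeR. The values of *Thbs4*, -0.84 (SE 0.425; edgeR adjusted p = 0.386), and of *Fn1*, 0.51 (SE 0.577; edgeR adjusted p = 0.686), had wide errors, and their ratios lay far apart in the 4 regions.

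Whether the genotype difference in 1 region departed from that in the other 3 was tested with an interaction term, for which each region gives only its 1 TKO and 1 WT library. No member passed in any region with edgeR or with DESeq2. In the infarct, though, DESeq2 gave no adjusted p for *Thbs3*, *Tnc*, *Fn1*, and *Tnxb*, so these could not pass there. Of all genes, edgeR called 117 in the left ventricle (0.9%), 1 in the infarct (0.00769%), and 0 in the border and remote zones. At an unadjusted p under 0.05, edgeR gave 2194 genes in the left ventricle (16.9%) and 1026 in the infarct (7.89%). It gave 187 at the border (1.44%) and 222 in remote tissue (1.71%). After adjustment, DESeq2 called 7 genes at the border and 12 in remote tissue. The share of all genes at that unadjusted p was not counted for DESeq2 or with total counts. For *Thbs4* the departure of the border zone was -1.27 on the log2 scale (SE 0.811; edgeR adjusted p = 1.0). For *Fn1* that of the infarct was -1.998 (SE 0.976; edgeR adjusted p = 0.817). In this edgeR fit 1 member was at an unadjusted p under 0.05, *Tnxb* in remote tissue, with a departure of -1.29 (SE 0.481; edgeR adjusted p = 1.0). In DESeq2 it was *Sparc* and *Thbs1* in the left ventricle, with departures of 0.71 (DESeq2 adjusted p = 0.112) and 0.82 (DESeq2 adjusted p = 0.424). In edgeR with total counts it was *Sparc* and *Tnxb* in the left ventricle, at 0.85 and 1.17, and *Thbs1* at the border, at -0.76, with edgeR adjusted p of 0.145, 0.262, and 1.0.

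Relative to the left ventricle, 7 of the 9 genes were higher in the infarct zone: all 4 thrombospondins, *Tnc*, *Sparc*, and *Fbln2*. The test was the same edgeR fit with genotype as the block, and it called 28.3% of all genes higher and 28.5% lower in the infarct. Genotypes stand in for replicates in this test and in those of the border and remote zones. Each genotype gives the contrast once, so these tests do not bear on mice. *Thbs4* rose most, by 4.26 on the log2 scale (SE 0.651; edgeR adjusted p = 0.0045), and *Fbln2* least, by 1.55 (SE 0.136; edgeR adjusted p = 0.000463). Between them were *Thbs1* at 3.15 (SE 0.310), *Thbs3* at 3.04 (SE 0.129), *Thbs2* at 2.95 (SE 0.124), *Tnc* at 2.79 (SE 0.158), and *Sparc* at 2.31 (SE 0.263), with edgeR adjusted p from 0.000114 to 0.000953. *Fn1* was at -0.19 (SE 0.753; edgeR adjusted p = 0.846) and *Tnxb* at -0.88 (SE 0.403; edgeR adjusted p = 0.102). The 7 calls remained when each library was left out in turn. Of these 7 values that of *Thbs4* moved most, to 3.67 without the WT left ventricle, 5.05 without the TKO left ventricle, and 3.62 without the TKO infarct, with edgeR adjusted p of 0.0257, 0.0120, and 0.0232. Without the WT left ventricle *Tnxb* passed as lower too, at -1.32 (edgeR adjusted p = 0.0327). Scaled by total counts instead, the median of all genes in the infarct moved up by 0.82 in WT and 0.53 in TKO on the log2 scale (0.14 for the WT border zone), and *Fn1* turned to 0.55, still without a call.

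Markers of several cell types rose in the infarct together with the 7 genes. All 8 fibroblast markers passed as higher by the same test, and their summed level was 845 CPM in the WT and 962 in the TKO left ventricle and 7538 and 6196 in the infarct. All 7 markers of activated fibroblasts and matrifibrocytes passed too, from 88.0 and 75.0 CPM to 2564 and 1997, as did all 6 macrophage markers, from 320 and 278 CPM to 1398 and 1064. Divided by 5 fibroblast markers that are not collagens (*Pdgfra*, *Dcn*, *Lum*, *Tcf21*, and *Ddr2*), a scaling chosen after seeing the data, the infarct over left ventricle ratio of *Thbs2* in WT went from 7.73 to 1.69 and that of *Sparc* from 6.25 to 1.36. On that scale *Thbs4* was at 4.66 in WT and 5.17 in TKO, *Thbs1* at 2.73 and 1.93, *Thbs3* at 1.84 and 2.40, and *Tnc* at 1.81 and 1.71. *Thbs2* and *Sparc* were at 2.29 and 1.21 in TKO, and *Fbln2* was below 1, at 0.644 in WT and 0.867 in TKO. The part of these cell types in the rise of the 7 genes was not tested.

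**Figure D3:**
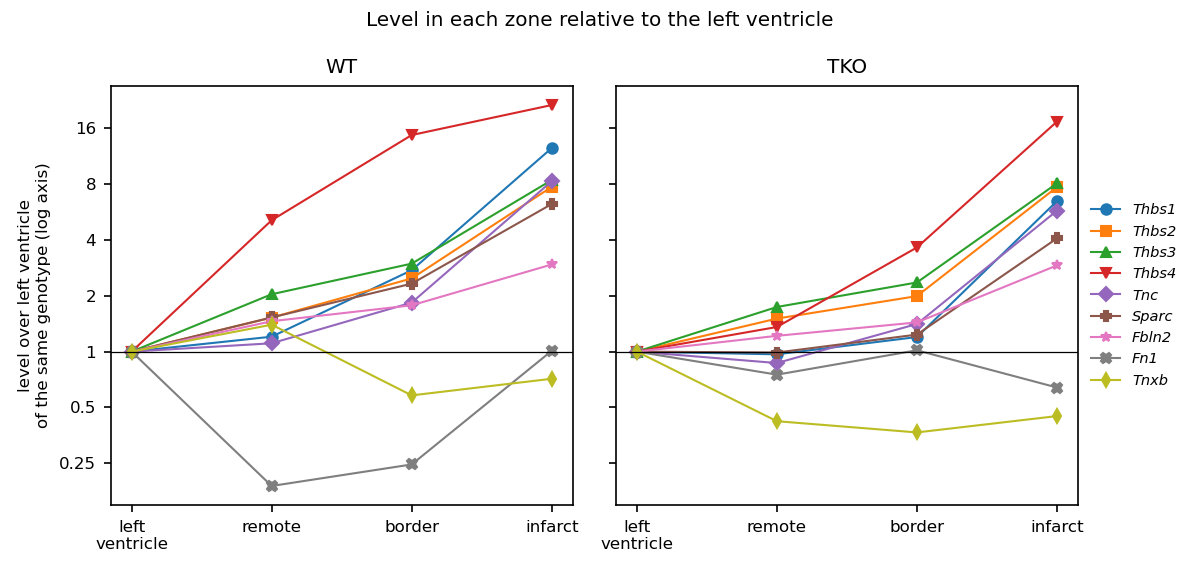
Level of each gene in the remote, border, and infarct zones over the left ventricle of the same genotype, for WT and TKO, on a log axis; lines only join the points of a gene. In WT *Thbs4* reached 5.11-fold in the remote and 14.7-fold at the border, and in TKO 1.36-fold and 3.64-fold, while *Fn1* dipped to 0.189 and 0.246 in WT and was at 0.751 and 1.02 in TKO.

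At the border, *Thbs2* and *Thbs3* passed, against 0.754% of all genes called higher. *Thbs2* rose by 1.16 on the log2 scale (SE 0.119; edgeR adjusted p = 0.0276) and *Thbs3* by 1.41 (SE 0.127; edgeR adjusted p = 0.0250). *Thbs4* had the highest value, 2.89 (SE 0.632; edgeR adjusted p = 0.130), but its step was 14.7-fold in WT and 3.64-fold in TKO. The other values were 0.86 for *Thbs1*, 0.75 for *Sparc*, 0.68 for both *Tnc* and *Fbln2*, -0.92 for *Fn1*, and -1.18 for *Tnxb*, with edgeR adjusted p from 0.0824 to 0.570. These calls depended on single libraries. Without the WT border, the WT remote, or the TKO remote library, and without both infarct libraries, neither *Thbs2* nor *Thbs3* passed, and without the TKO border library *Thbs3* alone did, although the values stayed within 0.998 to 1.31 for *Thbs2* and 1.29 to 1.53 for *Thbs3* in those fits. Without the TKO left ventricle *Tnc* passed too, at 0.90. DESeq2 called 5 members at the border, *Thbs2*, *Thbs3*, *Thbs4*, *Sparc*, and *Fbln2*. It called 576 of all genes there, against 107 with edgeR.

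In remote tissue none of the 9 passed with edgeR, which called 3 genes of all tested (0.0231%). At an unadjusted p under 0.05 there were 3 members, against 10.5% of all genes. They were *Thbs3* at 0.91 (SE 0.128; edgeR adjusted p = 0.155), *Thbs2* at 0.60 (SE 0.119; edgeR adjusted p = 0.237), and *Fbln2* at 0.41 (SE 0.134; edgeR adjusted p = 0.385). DESeq2 called *Thbs2* and *Thbs3* there, with adjusted p of 0.0167 and 0.000971, and it called 162 of all genes.

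Within each genotype, the count of members at least 2-fold above the left ventricle was 7 in the WT infarct, against 18.8% of all genes, and 7 in the TKO infarct, against 16.2%. At the border it was 5 in WT, against 5.45%, and 2 in TKO, against 4.42%: *Thbs3* and *Thbs4* in both, and in WT also *Thbs1*, *Thbs2*, and *Sparc*, with *Thbs2* in TKO just under the bound at 1.99. In remote tissue it was 2 in WT (*Thbs3* and *Thbs4*), against 3.42%, and 0 in TKO, against 3.11%. At least 2-fold below the left ventricle were *Fn1* in the WT border zone, against 1.84%, and in the WT remote zone, against 2.09%. In TKO it was *Tnxb* in the infarct, against 7.62%, the border zone, against 1.69%, and the remote zone, against 1.53%, and no member was so far below in the WT infarct, against 14.8%. The genotypes share no library in these ratios.

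Markers of fibroblasts and leukocytes also differed between the genotypes. The summed level of 8 fibroblast markers (*Pdgfra*, *Dcn*, *Lum*, *Tcf21*, *Col1a1*, *Col1a2*, *Col3a1*, and *Ddr2*) gave TKO over WT ratios of 1.14 in the left ventricle, 0.822 in the infarct, 0.575 at the border, and 0.700 in remote tissue. For 7 markers of activated fibroblasts and matrifibrocytes, among them *Postn*, *Comp*, and *Cilp*, the ratios were 0.852, 0.779, 0.348, and 0.380 in the same order, and for 6 macrophage markers 0.869, 0.761, 0.738, and 0.677. Cardiomyocyte markers had ratios of 0.986, 1.96, 1.17, and 1.12, and *Ptprc*, the pan-leukocyte marker, 0.636, 0.598, 0.630, and 0.657. The summed level of smooth muscle and pericyte markers gave 1.01, 0.821, 1.003, and 0.9495, and in the infarct 5 of these 6 markers were lower in TKO, with a median ratio of 0.594. Red blood cell markers had 1.29, 1.06, 1.22, and 0.976 in the same order, endothelial markers lay between 0.942 and 1.18, and platelet markers between 0.838 and 0.983. The summed level of 4 epicardial markers gave ratios between 0.376 and 0.977. At the border, though, 3 of these 4 markers were higher in TKO, with a median ratio of 1.37. In the left ventricle 3 of the 4 were lower, and in the infarct and remote zones all 4. Adipocyte markers were at 30.5 CPM in the WT and 0.463 in the TKO left ventricle, the region where *Tnxb* was 4.32-fold higher in TKO. In the infarct, border, and remote zones the adipocyte ratios were 0.621, 0.573, and 1.06, and those of *Tnxb* 2.72, 2.73, and 1.30. The part of all these cell types in the results of the 9 genes was not tested.

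To see how the members stood against the fibroblast markers, each TKO over WT ratio was also taken relative to the same 5 markers that are not collagens. On that scale the TKO over WT ratios of 4 genes were near 1 at the border: *Thbs2* at 0.920, *Thbs3* at 1.03, *Tnc* at 1.06, and *Fbln2* at 1.03. In the left ventricle the same 4 genes moved away from 1, *Thbs2* from 0.829 to 0.717, *Thbs3* from 0.937 to 0.810, *Tnc* from 0.997 to 0.863, and *Fbln2* from 0.924 to 0.800. *Thbs4* remained at 0.407 at the border and 0.394 in remote tissue. *Thbs1* was at 0.641 at the border and 0.648 in the infarct but at 1.07 in remote tissue, and *Sparc* at 0.774, 0.810, and 0.851 in the border, infarct, and remote zones. *Fn1* and *Tnxb* lay farther from 1 than before at the border, at 4.61 and 3.77.

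**Figure D4:**
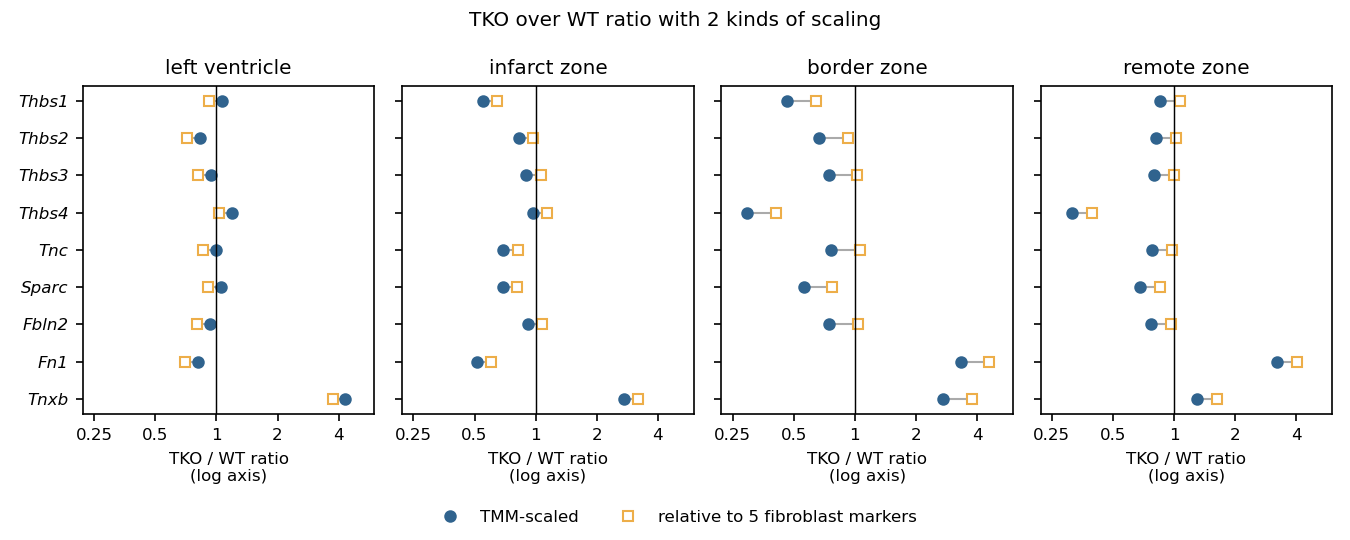
TKO over WT ratio of each gene in the 4 regions on a log axis, scaled by TMM (filled circles) and relative to 5 fibroblast markers (open squares). At the border *Thbs2*, *Thbs3*, *Tnc*, and *Fbln2* come to 0.920 to 1.06, while *Thbs4* (0.407) stays low and *Fn1* (4.61) and *Tnxb* (3.77) stay high; in the left ventricle the same 4 genes come to 0.717 to 0.863.

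Other matricellular genes were taken by family from a list of 30, of which 26 were tested. In the infarct 23 of these 26 passed as higher than the left ventricle and 1 as lower, with the percentages of all genes as given above, and none passed for the genotype difference with edgeR. The steepest were *Comp*, a pentameric thrombospondin also called thrombospondin 5, *Ccn5*, and *Postn*, the gene of periostin. *Comp* was at 11.8 CPM in the WT and 11.3 in the TKO left ventricle, at 1272 and 843 in the infarct, at 212 and 68.6 at the border, and at 63.7 and 24.4 in remote tissue. It thus resembled *Thbs4* in the border and remote zones, with TKO over WT ratios of 0.324 (0.308 to 0.340) and 0.383 (0.351 to 0.417), but not in the infarct, where its ratio was 0.663 (0.653 to 0.672) and that of *Thbs4* 0.967. *Ccn5*, of the CCN family, had 0.349 (0.324 to 0.376) in the border and 0.387 (0.350 to 0.427) in remote tissue. At the border 6 of the 26 were at least 2-fold lower in TKO, against 3.26% of all genes, and 1 was higher, against 1.23%. In remote tissue 6 were lower, against 2.39%, and 0 higher, against 1.17%. In the infarct 0 were lower, against 1.43%, and 0 higher, against 2.4%. In the left ventricle 1 was lower, against 3.62%, and 1 higher, against 1.98%. The median ratios were 0.801 at the border, 0.741 in remote tissue, 0.776 in the infarct, and 0.961 in the left ventricle.

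At the ends of that list, *Spp1*, the gene of the cytokine osteopontin, had the lowest TKO over WT ratio in the infarct, 0.508 (0.481 to 0.536), and in remote tissue, 0.276 (0.242 to 0.313). *Vtn*, the gene of vitronectin, had the highest in the infarct, 1.52 (1.36 to 1.71), and *Spock2*, a testican of the SPARC family, the highest in remote tissue, 1.28 (1.11 to 1.47). *Tnn*, the gene of tenascin N, was highest at the border at 2.46 (1.17 to 5.51), from 26 TKO and 11 WT counts.

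Of 24 receptors of these proteins, all tested, 18 passed as higher in the infarct than in the left ventricle, against 28.3% of all genes. As lower 4 passed, against 28.5%. With edgeR none passed at the border, against 0.823%, or for the genotype difference, against 0.185%. *Sdc1*, a syndecan that binds thrombospondins and fibronectin, was among the steepest, at 4.49 CPM in the WT left ventricle and 56.1 in the WT infarct, and at the border its TKO over WT ratio, 0.543 (0.473 to 0.621), was the lowest of the list. *Itgb8* and *Itgb7*, integrin β chains, were the next steepest, with infarct over left ventricle ratios of 8.19 and 6.46 in WT and 5.91 and 6.58 in TKO. *Cd36*, the receptor of the trimeric thrombospondins and the fatty acid transporter of the cardiomyocyte, was lower in the infarct, at 340.1 CPM in WT and 623 in TKO against 1422 and 1226 in the left ventricle, and its ratio of 1.83 (1.79 to 1.87) was the highest of the list there. *Itgb6*, the β chain of a fibronectin and latent TGF-β receptor, was highest at the border at 1.44 (1.22 to 1.69) and in remote tissue at 1.71 (1.43 to 2.03). *Itga8* had the lowest ratio in the infarct, 0.625 (0.566 to 0.689), and *Itgb7* the lowest in remote tissue, 0.404 (0.235 to 0.674). The median ratio of the receptors was 0.829 in the infarct, 0.881 in the border, 0.933 in remote tissue, and 0.944 in the left ventricle.

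Over the 8 libraries, log2 levels of the 7 genes that peaked in the infarct ran together, with Pearson's r between 0.85 and 0.99. *Fn1* had r between -0.31 and 0.16 with them and *Tnxb* between -0.51 and -0.35. These values describe 8 libraries that share the regions and the 2 high infarct libraries. By the same measure, the genes most like *Thbs1* were *Galnt10*, *Ppfibp1*, and *Src*, those most like *Thbs2* were *Mrc2*, *Antxr1*, and *Ust*, and those most like *Thbs3* were *Adamts2*, *Angptl7*, and *Itgbl1*. The nearest to *Thbs4* were *Tnmd*, *Postn*, and *Pamr1*, to *Tnc* *Scpep1*, *Cask*, and *Prkcb*, to *Sparc* *Mgp*, *Sec16b*, and *Lpar1*, and to *Fbln2* *Clk1*, *Adamts2*, and *Ugt1a7c*. For these 7 genes the nearest genes had r of 0.987 to 0.999. *Tnxb* was most like *St7*, *Fam222a*, and *Pbxip1* (0.975 to 0.923), and *Fn1* most like *Letmd1*, *Rgs1*, and *Mtmr4* (0.953 to 0.929). *Rgs1*, a regulator of G protein signaling in leukocytes, was at 0.519 CPM in the WT border and 0.526 in the WT remote zone, and at 2.97 to 4.42 CPM in the other 6. It was picked for its likeness to *Fn1* over these libraries, so being low in the same 2 follows from that choice.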

How the data were processed

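RNA from 8 heart samples was measured by RNA-seq, with 1 library per genotype and region, grouped by the genotype and tissue in the labels. Per the submitters' notes and the study's methods, the authors trimmed with Trim Galore 0.6.5, ran kallisto 0.46 on the mm10 transcriptome, and brought transcripts to gene level with tximport. The deposited values are estimated counts, stored as whole numbers without normalization; whether strand was used in counting is not given in the sources used here. Estimates of this kind share reads among overlapping transcripts, which bears on genes that overlap a partner on the other strand.

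The 9 genes and all lists were chosen with earlier results of these data known. The test covered the 12999 genes whose mean reached 1 CPM. Ratios use TMM factors over all 8 libraries and exact (Clopper-Pearson) 95% intervals, with 3 counts as the floor of a library (0.0709 to 0.116 CPM). Fits used edgeR 4.0.16 (robust quasi-likelihood, region plus genotype, Benjamini-Hochberg, threshold 0.05) in R 4.3.3 and were tested on simulated data. With no replicates, no p-value is given for a ratio between 2 libraries. Alternatives were DESeq2 1.42.0, total counts, TMM over 2 libraries, mitochondrial DNA-encoded genes left out, no filter, at least 10 counts in every library, and each library or region left out in turn. A scaling to fibroblast markers and a fit without both infarct libraries were added after seeing the data. Named by rule were the 9 genes, *Tigar*, *Postn*, the 3 genes nearest to each member by Pearson's r, the defining markers, and, of the other matricellular genes and the receptors, those with the highest and lowest TKO over WT ratio in each zone and the 3 steepest in the infarct. Coordinates and transcript lengths are from GENCODE M21 on GRCm38, matched by gene ID, and promoters from RefSeq on GRCm38.p6, matched by symbol. Python 3.11.15 was used with scipy 1.17.1 for intervals, numpy 2.4.6 and pandas 2.3.3 for tables, and matplotlib 3.10.9 for plots.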

Additional observations from a re-analysis of the deposited data

Results flagged for a closer look

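In 2 genes the TKO over WT ratio lay on opposite sides of 1 in different regions, each beyond counting error. With 1 library per genotype and region, a difference between 2 regions has no replicate check and was not tested as such. For *Sparc*, the ratio in the left ventricle was 1.53 times that in the infarct, 1.88 times that in the border zone, and 1.55 times that in the remote zone. For *Fn1*, the ratio in the left ventricle was 0.242 of that in the border zone and 0.251 of that in the remote zone, and the ratio in the infarct was 0.154 of that in the border zone and 0.159 of that in the remote zone. The edgeR test of each region against the other 3 called neither gene in any region.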

How the results depend on the processing

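No paired analysis was possible because the labels give no replicate numbers by which to pair mice, and the only pairing, that of the genotypes within a region, is part of the test as reported. The cause of the changes below was not tested. A turn to the other side of 1 was counted only for ratios of the 9 genes whose counting interval excluded 1. Scaling by DESeq2 size factors, by TMM over the 2 libraries compared, or without mitochondrial DNA-encoded genes turned no such ratio. Scaling by total counts turned none of these either. Among all ratios, also those whose interval held 1, it moved 33 out of their counting intervals and left 57 within them. Relative to fibroblast markers, 16 of the ratios whose interval excluded 1 turned. Ratios whose interval held 1 are not in this count, though some crossed 1 too. That of *Thbs4* between genotypes in the infarct, for example, went from 0.967 to 1.14. The 16 were as follows. TKO over WT became 1.07 for *Thbs1* and 1.02 for *Thbs2* in the remote zone, 1.06 for *Thbs3* and 1.08 for *Fbln2* in the infarct, 1.03 for *Thbs3*, 1.06 for *Tnc*, and 1.03 for *Fbln2* in the border zone, and 0.911 for *Sparc* in the left ventricle. Over the WT left ventricle, the remote zone became 0.780 for *Thbs1*, 0.989 for *Thbs2*, 0.990 for *Sparc*, and 0.945 for *Fbln2*, the border zone 0.986 for *Tnc* and 0.954 for *Fbln2*, and the infarct 0.644 for *Fbln2*, which became 0.867 in TKO.

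Counts of calls moved more. In the border zone, 107 genes became 361 with total counts, 576 with DESeq2, 21 without both infarct libraries, and 1 to 465 with each library left out, and the 2 members became 5, 0, and 0 to 3 with DESeq2, without the infarct libraries, and with each library left out. In the remote zone, 3 genes became 18 with total counts, 1 without mitochondrial genes, 162 with DESeq2, 1 without the infarct libraries, and 0 to 85 with each library left out, and 0 members became 2 with DESeq2. In the infarct, 7387 genes became 4912 to 7232 with a library left out, the fewest without the WT infarct. Between genotypes, 24 genes became 146 with total counts, 342 with DESeq2, and 3 to 111 with each region left out, and 0 members became 2 with DESeq2. Departures went from 117 to 548 with total counts and 280 with DESeq2 in the left ventricle, from 1 to 0 with at least 10 counts and 288 with DESeq2 in the infarct, from 0 to 40 and 7 in the border zone, and from 0 to 1 and 12 in the remote zone. Without a filter, genes at least 2-fold different numbered 2138, 1473, 1837, and 1604 in the left ventricle, infarct, border, and remote zones, and with total counts 3 members passed 2-fold in the infarct in place of 1 (2 of them lower, against 3.82% of all genes, and 1 higher, against 0.892%).

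Of log2 values without a call, *Fn1* in the infarct turned to 0.55 with total counts and ran from -1.46 to 0.54 with each library left out. In the remote zone, each library left out gave -0.29 to 0.54 for *Thbs1*, -0.061 to 0.66 for *Sparc*, -0.25 to 0.19 for *Tnc*, and -1.06 to 0.23 for *Tnxb*, and total counts gave 0.013 for *Tnc*. With total counts, infarct departures turned to -0.14 for *Thbs2*, -0.11 for *Thbs3*, -0.081 for *Fbln2*, and -0.12 for *Tnxb*, and remote departures to 0.036 for *Thbs3* and 0.10 for *Tnc*. Depth limits *Tnxb*, with 32 to 200 counts, and *Tnc*, with 114 counts at the least.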
